A study of Mus musculus with 9 samples.

Results

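The 10 genes described here encode the core of transforming growth factor beta (TGF-beta) signalling: the ligands Tgfb1, Tgfb2 and Tgfb3, the receptors Tgfbr1, Tgfbr2 and Tgfbr3, and the Smad proteins Smad2, Smad3, Smad4 and Smad7. They were taken as a list of symbols and looked up in both deposited tables, and all 10 had a value in each, among 18971 genes (JICD1 table) and 19287 genes (NICD1 table). The table's own symbol found 3 of them (Tgfb2, Tgfb3 and Tgfbr2), and a gene identifier mapped to its current symbol found the other 7.

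RNA was sequenced from cultured mouse brain astrocytes. All 3 groups are labelled with the genotype Ink4a-/-, the loss of a cell cycle inhibitor. The cells had been transfected with pcDNA HA-JICD1 puro (3 libraries, labelled JICD1), with pcDNA NICD puro (3 libraries, labelled NICD1) or with the empty pcDNA puro vector (3 control libraries). Jagged1 is a Notch ligand, and JICD1 is its intracellular piece. NICD1 comes from the receptor Notch1, moves to the nucleus and activates transcription with RBPJ. The labels do not say whether the 3 libraries of a group came from separate cultures or clones. Cells grew in high-glucose medium with fetal bovine serum.

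For each construct the authors deposited 1 log2 ratio over control and 1 score between 0 and 1 per gene. The tables analysed here hold nothing per library. The ratios therefore carry no replicate error, standard deviation or p-value, and the sequencing depth is unknown. A gene is called scored at 0.8 or more, which is a threshold on the authors' score and not a significance level. Higher and lower describe the sign of a ratio. Ratios of different genes say nothing about which gene has more transcript. In a bulk culture, fewer cells of a type and less RNA per cell cannot be told apart.

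Jag1 did not follow the JICD1 label in the authors' deposited tables, at -1.39 in the JICD1 comparison and 1.36 in the NICD1 comparison, while Notch1 stood at 1.33 and 1.77. Whether reads of the transfected JICD1 piece count toward Jag1 could not be learned from the sources used here, so this value is a limited check of the label. The first group is therefore called the JICD1-labelled libraries, and each direction given for it rests on that label. Cdkn2a, the gene that encodes Ink4a, had no JICD1 ratio and an NICD1 ratio of 7.59 (score 0.827) in the authors' deposited table. Its control was placed at the inferred floor, so the ratio gives no fold. A ratio above 0 goes against the genotype label for the NICD1 libraries if the whole locus was deleted, and which part was deleted could not be learned from the sources used here. Of 12 astrocyte markers 11 had ratios, with medians of -0.72 for JICD1 and -0.69 for NICD1 (all genes: 0.05 and -0.02). Of the 11, 1 (9.09%) was scored lower for JICD1 and 2 (18.2%) for NICD1, and none higher. Among all genes, 1.74% were scored lower for JICD1 and 0.97% for NICD1. The tables hold no levels, so whether the astrocyte markers were abundant could not be read from them.

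TGF-beta ligands are secreted as latent precursors, held by binding proteins in the matrix until integrins or proteases free them. Free ligand joins the type II receptor Tgfbr2 to the type I receptor Tgfbr1, often with help from the co-receptor Tgfbr3. Tgfbr1 then phosphorylates Smad2 and Smad3, which enter the nucleus with the shared partner Smad4, and Smad7 is an inhibitory Smad that the pathway itself induces. In the brain the pathway is known for its part in astrocyte reactivity and scar formation, and in glioma for invasion and mesenchymal character.

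The RefSeq table held a promoter window for 5 of the 10 members, and the sequences just upstream of 3 are shown because their genes had a ratio below 0 for JICD1 and above 0 for NICD1. Smad7 did too, and its sequence is not shown. The 250 bases before the annotated start are from RefSeq (GRCm38.p6), 5′ to 3′ on the gene's strand, for Tgfb1 at chr7:25686752-25687001 (plus strand), Tgfb2 at chr1:186705990-186706239 (minus strand) and Smad3 at chr9:63757995-63758244 (minus strand). Capitals mark matches on either strand to the 6 motifs listed after the sequences.
Tgfb1: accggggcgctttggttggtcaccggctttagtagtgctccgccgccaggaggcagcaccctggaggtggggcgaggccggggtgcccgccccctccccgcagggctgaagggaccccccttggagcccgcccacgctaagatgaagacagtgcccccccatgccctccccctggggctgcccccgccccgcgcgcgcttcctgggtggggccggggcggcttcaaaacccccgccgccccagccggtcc
Tgfb2: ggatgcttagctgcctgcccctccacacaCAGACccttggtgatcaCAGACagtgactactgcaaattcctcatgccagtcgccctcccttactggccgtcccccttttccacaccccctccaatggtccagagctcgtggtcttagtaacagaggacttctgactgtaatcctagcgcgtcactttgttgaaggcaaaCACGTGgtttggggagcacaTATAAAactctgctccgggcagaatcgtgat
Smad3: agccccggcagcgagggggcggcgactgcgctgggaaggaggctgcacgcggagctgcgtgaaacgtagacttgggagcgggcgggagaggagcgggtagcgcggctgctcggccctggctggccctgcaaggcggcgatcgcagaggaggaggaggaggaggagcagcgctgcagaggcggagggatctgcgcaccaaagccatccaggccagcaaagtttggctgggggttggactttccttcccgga

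The motifs searched were the RBPJ core GTGGGAA, the AP-1 site TGANTCA, the Smad palindrome GTCTAGAC, the short Smad motif CAGAC, the E-box CACGTG and the TATA motif TATAAA. The Tgfb2 window held the short Smad motif at 221 to 217 and again at 204 to 200 bases before the start, the E-box at 51 to 46 and the TATA motif at 31 to 26. The Tgfb1 and Smad3 windows held none of the 6. Among all 32851 promoter windows of this length, 42.2% held the short Smad motif, 12.4% the TATA motif, 6.02% the E-box, 6.75% the AP-1 site, 5.42% the RBPJ core and 0.167% the Smad palindrome. The Tgfb1 and Smad3 windows were rich in G and C, at 75.2% and 69.2%, while the Tgfb2 window had 53.6% against a median of 52.4% over all windows. A match is a run of letters and not a shown binding site.

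The first comparison set the JICD1-labelled libraries against control. All 3 ligand genes were lower, while the receptors and Smads lay on both sides of 0. In all, 1 of the 10 members was scored lower (Tgfb1) and none higher, where 1.74% of all genes in the table were scored lower and 1.07% higher. At a log2 ratio of -1 or less stood 2 members (Tgfb1 and Tgfb3), against 14.4% of all genes, and none reached 1 or more, against 14.5% of all genes. The median over the 10 was -0.37, beside 0.05 over all genes, and 6 of 10 lay below 0, beside 45.5% of all genes.

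Tgfb1 is the most widely studied ligand and a signal between glia, immune cells and matrix-forming cells. The authors' deposited table listed it at -1.03 on the log2 scale (score 0.806), or 2.04-fold lower in the JICD1-labelled libraries than in control. That score was above those of 97.4% of all genes. Of the 300 genes nearest to Tgfb1 in absolute ratio, 95.0% had a lower score, so this ratio came with a high score for its size.

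Tgfb3, a ligand known for roles in palate and wound closure, had the lowest ratio of the 10 at -1.26, or 2.39-fold lower, in the authors' deposited table. Its score of 0.794 fell just short of 0.8. For Tgfb2, the ligand that depends most on the co-receptor Tgfbr3 for receptor binding, the authors' deposited table listed -0.94 (score 0.746), or 1.92-fold lower. The ligand ratios thus ran from -1.26 to -0.94, and with no replicate error their order among themselves cannot be read as a difference.

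Among the receptors, the signalling pair had ratios near 0. Tgfbr1 had a ratio of 0.19 (score 0.388) and Tgfbr2 of -0.24 (score 0.546) in the authors' deposited table, both inside the range of -0.43 to 0.50 that holds the middle 50% of all genes. Tgfbr3, the co-receptor also called betaglycan, had the highest ratio of the 10, listed at 0.88 (score 0.709) in the authors' deposited table, or 1.84-fold higher in the JICD1-labelled libraries. It was not scored.

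The Smads lay on both sides of 0. In the authors' deposited table the receptor-activated Smad2 stood at 0.29 (score 0.567) and the shared partner Smad4 at 0.02 (score 0.183). Smad3, the other receptor-activated Smad, was listed at -0.50 (score 0.655) in the authors' deposited table. Smad7, the inhibitory member, was listed at -0.85 (score 0.690) in the authors' deposited table, or 1.80-fold lower. None of the 4 was scored.

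**Figure D1:**
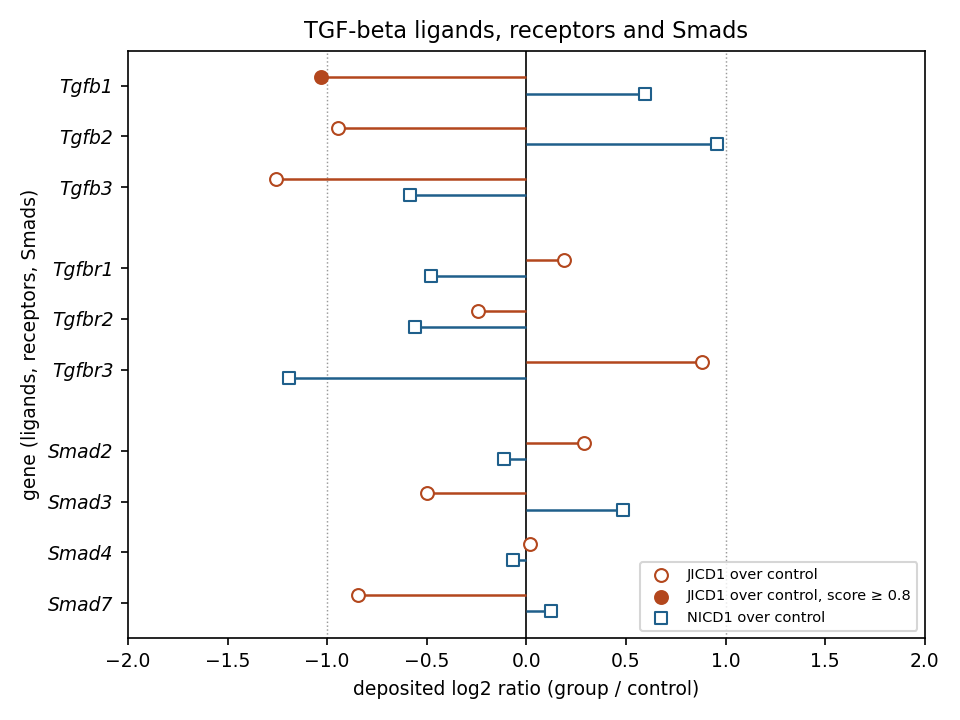
Deposited log2 ratio over control (x axis) of the 10 genes (y axis, in the order ligands, receptors, Smads), for the JICD1-labelled libraries (circles) and NICD1 (squares); a filled symbol marks a score of 0.8 or more, dotted lines mark ratios of -1 and 1, and no error bar exists. The ligands lie at -1.26 to -0.94 for JICD1, and the receptors lie at -1.19 to -0.48 for NICD1.

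The second comparison set the NICD1 libraries against control. Here the receptor genes were all lower, Tgfb1 and Tgfb2 were higher, and the Smads lay near 0 apart from Smad3. None of the 10 was scored in either direction, where 1.64% of all genes in the table were scored higher and 0.97% lower. At a ratio of -1 or less stood 1 member (Tgfbr3), against 12.1% of all genes, and none reached 1, against 16.6%. The median over the 10 was -0.09, beside -0.02 over all genes, and 6 of 10 lay below 0, beside 51.5% of all genes.

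Tgfb2 had the highest ratio in the authors' deposited table, 0.96 (score 0.784), or 1.94-fold higher with NICD1. Tgfb1 followed in the authors' deposited table at 0.60 (score 0.738), or 1.51-fold higher. Of the 300 genes nearest in absolute ratio, 92.3% had a lower score than Tgfb2 and 96.3% a lower score than Tgfb1. Tgfb3 went the other way, with -0.58 (score 0.680) in the authors' deposited table.

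Tgfbr3 had the lowest NICD1 ratio of the 10, listed at -1.19 (score 0.733) in the authors' deposited table, or 2.28-fold lower. In the authors' deposited table the type II receptor gene Tgfbr2 followed at -0.56 (score 0.725), and the type I receptor gene Tgfbr1 at -0.48 (score 0.590). All 3 receptor ratios lay below the middle 50% of all genes, which spanned -0.37 to 0.52.

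Smad3, listed at 0.49 (score 0.684) in the authors' deposited table, was the Smad with the largest absolute ratio for NICD1. Smad7 stood at 0.12, Smad4 at -0.07 and Smad2 at -0.11 in the authors' deposited table, with scores between 0.294 and 0.362. The gene of the inhibitory Smad thus had a ratio near 0 while 2 of the 3 ligand genes had ratios above 0.5.

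**Figure D2:**
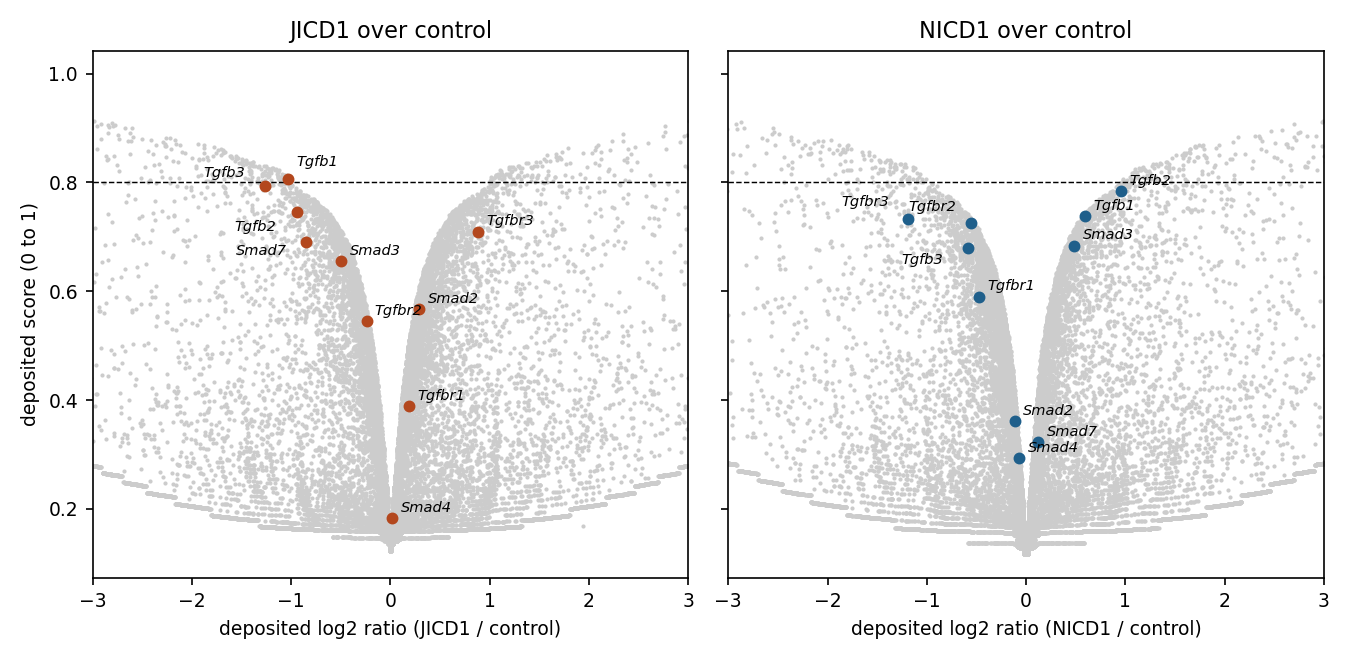
Deposited score (y axis, 0 to 1) against deposited log2 ratio over control (x axis, shown from -3 to 3) for all genes (grey) and the 10 members (coloured and named), JICD1 on the left and NICD1 on the right; the dashed line marks a score of 0.8. Tgfb1 in the JICD1 panel, at 0.806, is the only member above the line in these 2 panels.

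The scores put these genes mostly in the upper part of each table's score range, with 1 past the threshold for JICD1 and none for NICD1. Members' scores ran from 0.183 to 0.806 for JICD1 and from 0.294 to 0.784 for NICD1. The share of all genes with a lower score than the member had a median of 89.2% over the 10 for JICD1 and 90.9% for NICD1. Set against the 300 genes nearest in absolute ratio, the corresponding medians were 84.0% and 83.3%. The tables hold no levels, so whether these score ranks follow the abundance of the genes was not tested. The tables appear to use a common floor for undetected genes, and its inference covers only absolute ratios of 1 or more. Among the members that holds for Tgfb1 and Tgfb3 with JICD1 and for Tgfbr3 with NICD1, and none of these was placed there. The other member values were too small in size for the inference, so it does not show whether they lay at the floor.

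The third comparison set the JICD1-labelled libraries against the NICD1 libraries. Both tables share the control, so the difference of the deposited ratios gives JICD1 over NICD1, without a score or a test. In this difference all 3 ligands were lower, all 3 receptors higher, and the Smads went both ways in the JICD1-labelled libraries. Of all genes, 43.7% lay below 0 and 52.5% above 0. A difference of -1 or less was found for 2 members, beside 13.6% of all 18182 genes in both tables, and of 1 or more for 1 member, beside 10.6%. With each table centred on its median, Smad3 (-1.04) and Smad7 (-1.03) were past -1 as well.

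From the authors' deposited tables, Tgfb2 differed by -1.90, or 3.73-fold lower in the JICD1-labelled libraries than with NICD1. Tgfb1 differed by -1.63, or 3.09-fold lower, and Tgfb3 by -0.67 in the authors' deposited tables. Tgfbr3 was at the other end with a difference of 2.07 in the authors' deposited tables, or 4.20-fold higher, above the difference of 96.2% of all genes. Tgfbr1 differed by 0.67 and Tgfbr2 by 0.32 in the authors' deposited tables.

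Smad3 and Smad7 had nearly equal differences of -0.98 and -0.97 in the authors' deposited tables, while Smad2 was at 0.40 and Smad4 at 0.09. The middle 50% of all genes spanned -0.40 to 0.43 in this difference, and 7 of the 10 members lay outside it, 5 below (the ligands, Smad3 and Smad7) and 2 above (Tgfbr1 and Tgfbr3). Since the ratios over control share the same control libraries, signs that match or differ between those 2 comparisons are not read as a result.

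**Figure D3:**
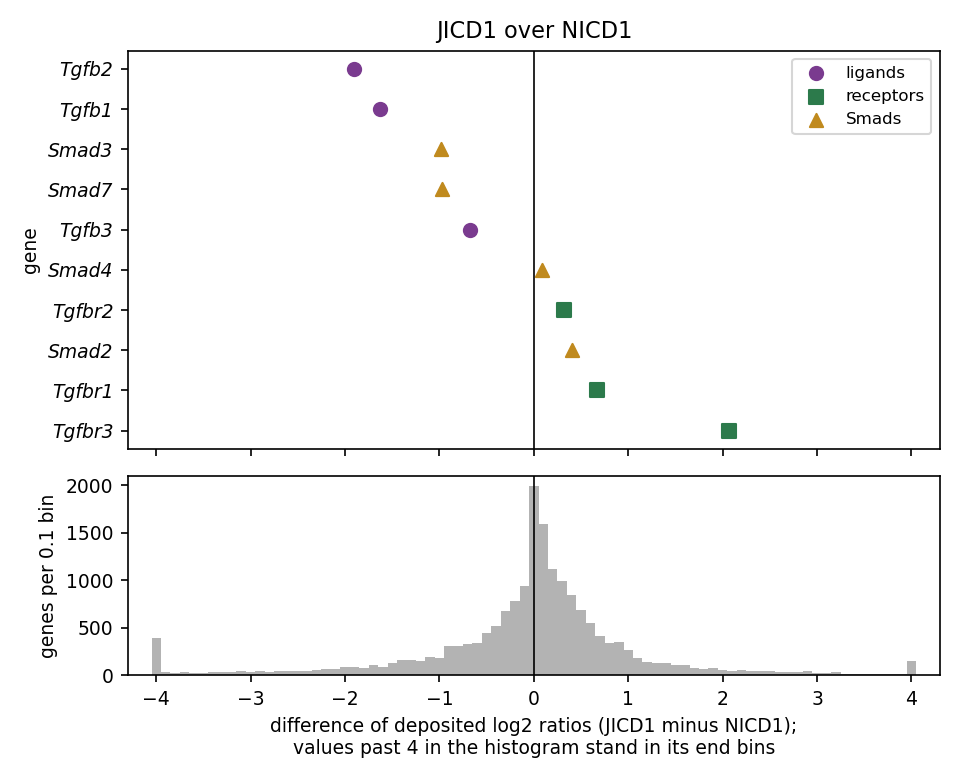
Upper panel: difference of the deposited log2 ratios, JICD1 minus NICD1 (x axis), for the 10 genes (y axis, sorted), with ligands as circles, receptors as squares and Smads as triangles. Lower panel: number of all genes per bin of the same difference. The ligands lie between -1.90 and -0.67 and the receptors between 0.32 and 2.07.

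What each row of the tables stands for bears on these values. For the 7 members without a symbol the tables quote a GRCm38 transcript as the description, although the labels name the build mm9. That transcript is protein-coding for Tgfbr1, Smad2 and Smad7, a retained-intron transcript for Tgfb1 and Tgfbr3, and a processed transcript for Smad3 and Smad4. The Tgfb1 record lies at chr7:25692418-25697174 on GRCm38, 26.3% of the gene's span. The GENCODE M21 transcript with those ends has 3 exons and 495 bases, where the longest coding transcript of Tgfb1 has 2175. The Smad3 record matches a transcript of 2 exons and 406 bases. Whether a row's ratio counts reads of the whole gene or only of the quoted transcript could not be learned from the sources used here. In that annotation, genes on the opposite strand share exonic bases with Tgfb2 and Tgfb3, and a gene on the same strand does so with Tgfbr3, and whether counting used strand could not be learned either.

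The remaining pathway genes were described through 8 lists with 105 genes in all, of which 97 had a JICD1 ratio and 101 an NICD1 ratio. For JICD1, 15 of 97 (15.5%) were scored lower and 2 (2.06%) higher, with a median of -0.30, beside 1.74% lower and 1.07% higher among all genes. For NICD1 the counts ran the other way, with 15 of 101 (14.9%) scored higher and 2 (1.98%) lower, and a median of 0.21, beside 1.64% higher and 0.97% lower among all genes. The smaller count in each comparison, 2 genes, is thus near its share over all genes. These lists were made with earlier results of the same data known, so their counts are a description.

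Genes that hold latent TGF-beta or release it were mostly lower in the JICD1-labelled libraries. Of 18 measured members of that list 15 lay below 0 (all genes: 45.5%), with a median of -0.77, and 5 (27.8%) were scored lower (all genes: 1.74%) and none higher. With symbols written in the table only, the 5 scored lower became 1. That setting leaves fewer genes on the list, and how many is not given, so no share stands beside this count. In the authors' deposited table the most extreme scored genes were the gelatinases Mmp9 (-3.46) and Mmp2 (-2.73), the integrin subunit Itgb5 (-1.60) and the microfibril gene Fbn1 (-1.39). For NICD1, 4 of 19 lay below 0 (all genes: 51.5%), with a median of 0.63, and 4 (21.1%) were scored higher (all genes: 1.64%) and none lower. In the authors' deposited table those were the fibrillin gene Fbn2 (7.84), Lrrc32 (7.04), which encodes a surface anchor for latent ligand, the latent TGF-beta binding protein gene Ltbp2 (3.66) and the activator gene Thbs1 (1.78). The control of Fbn2 was placed at the floor by the inference, so its ratio gives no fold. Lrrc32 was not placed there for NICD1. Its JICD1 ratio of -0.73 (score 0.162) in the authors' deposited table is below the size that the inference covers. The tables hold no levels, so how close the control of Lrrc32 lay to the floor is unknown. The list's median difference, JICD1 minus NICD1, was -1.42.

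Co-receptor and extracellular modulator genes had 9 measured members. All 9 lay below 0 for JICD1 (all genes: 45.5%), with a median of -0.59. The single scored gene (11.1% of the 9, all genes: 1.74% lower) was Dcn. This gene of a matrix proteoglycan that binds TGF-beta is listed at -8.67 in the authors' deposited table. The inference placed its JICD1 group at the floor. For NICD1, 5 of 9 lay below 0 (all genes: 51.5%). In the authors' deposited table Dcn was scored at -5.08 and the co-receptor gene Cd109 at 1.47. Each is 11.1% of the 9, beside 0.97% of all genes scored lower and 1.64% higher.

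Activins signal through the same Smad2 and Smad3. In the activin and GDF branch the JICD1 median was 0.12 over 9 genes and the NICD1 median 0.64 over 12. The NICD1 median was 0.34 without genes inferred at a floor and 1.40 with symbols written in the table only. The scored genes for JICD1 were Fstl1 (-2.99), a secreted follistatin-like protein gene, and the activin antagonist Fst (1.21) in the authors' deposited table. Each is 11.1% of the 9, beside 1.74% of all genes scored lower and 1.07% higher. For NICD1 the scored gene was Inhba, the activin A subunit, at 1.95 in the authors' deposited table. Its JICD1 ratio in the authors' deposited table was 0.13. Inhba is 8.33% of the 12, beside 1.64% of all genes scored higher for NICD1.

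The intracellular machinery had medians close to 0. Among 23 regulators of Smads and receptors the median was -0.02 for JICD1 and below 0.01 in size for NICD1. Pmepa1, a feedback inhibitor that traps Smad2 and Smad3, was the scored member, at -2.80 for JICD1, against 0.10 for NICD1, in the authors' deposited tables. It is 4.35% of the 23, beside 1.74% of all genes scored lower for JICD1. The BMP branch Smads Smad1, Smad5 and Smad9 had no scored member and medians of -0.10 for JICD1 and 0.18 for NICD1, which became -1.14 and 1.09 with symbols written in the tables only. The 12 transcription partners had medians of -0.17 and -0.04 in the same order, with the repressor gene Zeb2 scored at 1.30 for NICD1 in the authors' deposited table. Zeb2 is 8.33% of the 12, beside 1.64% of all genes scored higher for NICD1. The 8 genes of the non-Smad pathway had none scored, with medians of -0.05 and 0.11.

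Target genes of the pathway came next. For JICD1 11 of 15 lay below 0 (all genes: 45.5%), with a median of -0.75, and 7 (46.7%) were scored lower and 1 higher (all genes: 1.74% and 1.07%). For NICD1 3 of 15 lay below 0 (all genes: 51.5%), with a median of 1.57, and 8 (53.3%) were scored higher and 1 lower (all genes: 1.64% and 0.97%). With symbols written in the tables only, which leaves fewer targets, 4 were scored lower for JICD1 and 4 higher for NICD1. How many targets remained is not given, so these counts have no share beside them. The matrix protein gene Tgfbi was scored lower in both, at -4.88 and -2.92 in the authors' deposited tables. Further scored targets were Ccn2 (-4.01), Acta2 (-3.74) and Cdkn1a (2.35) for JICD1, and Cdkn2b (11.24) and Tagln (4.21) for NICD1, in the authors' deposited tables. The control of Cdkn2b was placed at the floor by the inference in the JICD1 comparison, where its ratio was 1.81. Both comparisons share that control, so the NICD1 ratio of Cdkn2b gives no fold. Cdkn2b is counted among the 8 targets scored higher. Cdkn2a, the gene behind the genotype label, likewise had its control at the inferred floor, with an NICD1 ratio of 7.59 in the authors' deposited table. Whether the value of Cdkn2b is tied to that genotype was not tested.

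**Figure D4:**
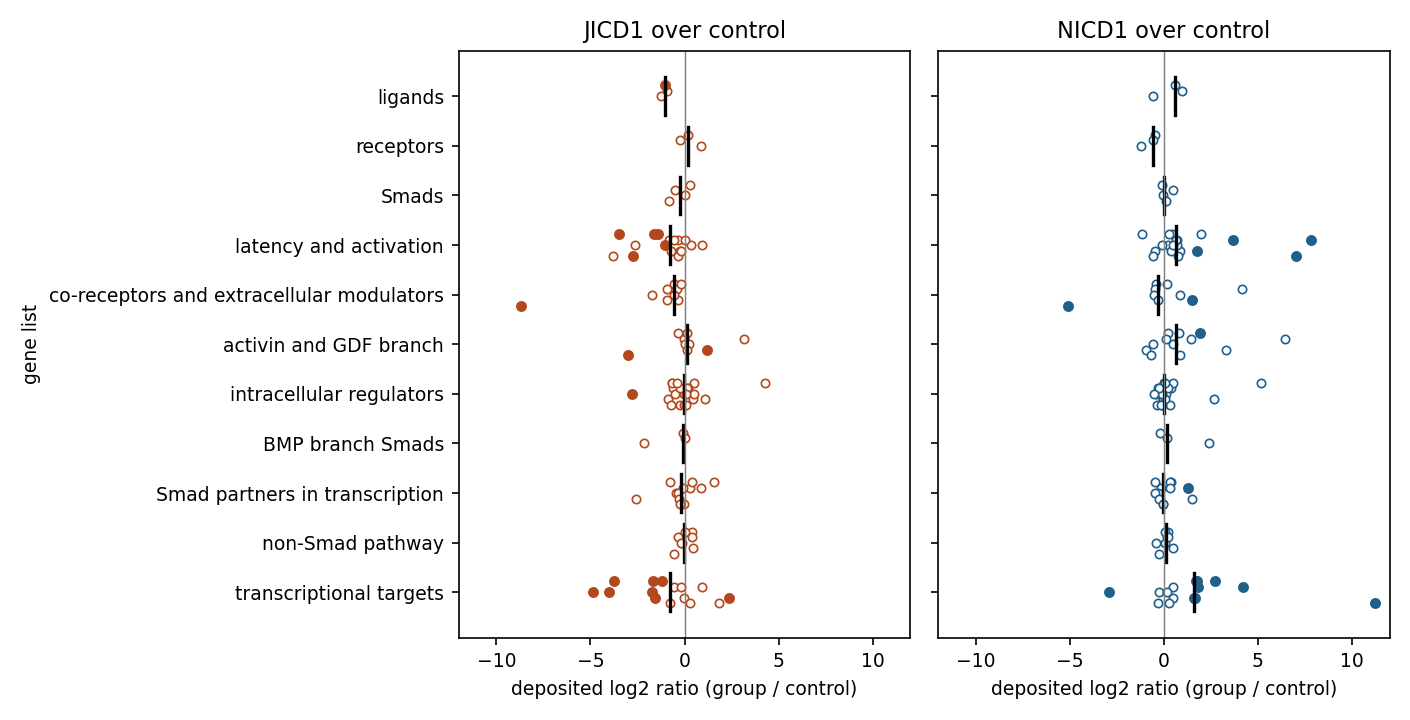
Deposited log2 ratio over control (x axis) of every measured gene of the 3 member roles and the 8 other pathway lists (y axis), JICD1 on the left and NICD1 on the right; each point is a gene, filled points have a score of 0.8 or more, and the vertical bar is the list's median. The medians of latency genes (-0.77 and 0.63) and targets (-0.75 and 1.57) stand on opposite sides of 0 in the 2 panels.

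Of the other cell type marker lists, those of fibroblasts and pericytes, microglia, endothelium and neurons had medians away from 0 in both comparisons, while oligodendrocyte lineage markers, with none scored, had medians of 0.10 for JICD1 and 0.02 for NICD1. All 5 measured of 8 fibroblast and pericyte markers lay below 0 for JICD1 (all genes: 45.5%), from -8.67 to -2.15, with a median of -2.36. Of these, 3 (60%) were scored lower (all genes: 1.74%), and Dcn is shared with the modulator list. For NICD1, 4 of 6 measured lay below 0 (all genes: 51.5%), with a median of -1.56. Of the 6, 1 (16.7%) was scored lower (all genes: 0.97%). Of 7 microglia markers, 5 lay below 0 for JICD1 (all genes: 45.5%), with a median of -0.61. For NICD1, 6 lay above 0 (all genes: 48.5%), with a median of 0.96. A single microglia marker (14.3%, all genes: 1.74% lower) was scored, Tmem119 at -8.48 for JICD1 in the authors' deposited table. Its NICD1 ratio in the authors' deposited table was also below 0, at -1.36 (score 0.781). The 5 measured endothelial markers had none scored and medians of 0.48 for JICD1 and 1.70 for NICD1. Of the neuron markers, 4 were measured for JICD1, with a median of -0.80, 1 scored higher and 1 lower. For NICD1 3 were measured, with a median of 2.76, 2 scored higher and 1 lower. Among all genes, 1.07% were scored higher and 1.74% lower for JICD1, and 1.64% and 0.97% for NICD1. The tables hold no levels, so the summed level of a marker list cannot be given, and the part of these markers in the ratios of the ligands, latency genes and targets was not tested.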

How the data were processed

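RNA-seq of 9 libraries (3 labelled JICD1, 3 NICD1, 3 control) was read from 2 tables of the authors' own comparisons. Per the file headers, each deposited table gives per gene a log2 ratio (JICD1 or NICD1 over control) and a value between 0 and 1 named Probability. That deposited value is used here as a score. The submitters' processing notes name the tools Bowtie2 and BWA, without versions, and the mouse build mm9. Read counting, normalization and the merging of libraries could not be learned from the sources used here. The tables held 0 unused numeric columns. The count test and leave-one-out fits that had been foreseen for values per library could not be run, so the ratios were described without a test, and depth is unknown.

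Symbols came from the tables or from NCBI and GENCODE M21 identifiers (GRCm38), which named 18681 and 18998 genes. The members and lists were chosen with earlier results of these data known. Named genes are the 10 members and, per list and comparison, up to 4 genes with a score of 0.8 or more and the largest absolute ratio. One target gene that meets this rule is not reported here. Floors were inferred: 694 genes had equal negative ratios in both tables (tolerance 1e-06), and genes within 0.002 of their score curve (0.01 above a ratio of 6), with an absolute ratio of 1 or more, were placed there. This inference was tested on simulated data. Alternatives changed the score threshold, the ratio threshold, the centring, the naming and the genes included. Python 3.11.15, numpy 2.4.6, pandas 2.3.3 and matplotlib 3.10.9 were used.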

Additional observations from a re-analysis of the deposited data

How the results depend on the processing

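No paired analysis was possible because the tables give group ratios only, with nothing per library; for the same reason no replicate could be left out, and the DESeq2, low-count filter and block alternatives were not run. Counts of members depended on the thresholds. Shares of all genes under the alternatives below are not given, so these counts of members and pathway genes show only how they move. With a score threshold of 0.7, 1 member was higher and 3 lower for JICD1, and 2 were higher and 2 lower for NICD1; with 0.9, 0 were lower for JICD1. With an absolute log2 ratio of 2, 0 members were lower for either construct; with 0.5, 1 was higher and 4 lower for JICD1, and 2 higher and 3 lower for NICD1. With symbols written in the tables only, which leaves 3 members, and also without the members whose record is not a protein-coding transcript (added after the data were seen), 0 members were scored lower and 1 was past the ratio of -1 for JICD1, and 0 for NICD1. Among the other pathway genes, the table's symbols, which leave fewer genes, gave 1 scored higher and 6 lower for JICD1 and 9 higher for NICD1. A score threshold of 0.7 gave 6 higher and 24 lower for JICD1 and 27 higher and 6 lower for NICD1. A threshold of 0.9 gave 0 higher and 6 lower for JICD1 and 4 higher and 1 lower for NICD1. Centring on the table median turned the JICD1 ratio of Smad4 to -0.027 and no other member's sign, and it put the differences of Smad3 (-1.04) and Smad7 (-1.03) past -1. The table's symbols alone turned the median of the intracellular regulators to 0.083 for JICD1 and -0.027 for NICD1, and that of the transcription partners to 0.31 for NICD1; they moved the BMP Smad medians to -1.14 and 1.09, the target medians to -1.15 and 1.06, and the NICD1 activin median to 1.40, which was 0.34 without genes inferred at a floor. Each alternative used another limit, a shift or fewer genes. Whether the rows of members dropped for their records count the whole gene remains unknown.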

Other observations

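The tables carry their own gene ontology annotation. The term for the TGF-beta receptor signalling pathway was attached to 93 genes of the JICD1 table and 90 of the NICD1 table, including 9 of the 10 members. Without those members, 84 genes had a JICD1 median of 0.02 with 42 below 0, and 81 had an NICD1 median of -0.02 with 42 below 0, so this wider list was centred near 0 in both. For JICD1 2 (2.38%) were scored lower and 1 (1.19%) higher, near the 1.74% and 1.07% over all genes, and for NICD1 6 (7.41%) were scored higher, beside 1.64% over all genes, and none lower. Of those on none of the other lists, the authors' deposited tables gave Prdm16, a transcriptional regulator gene, 6.76 for JICD1. For NICD1 the authors' deposited table gave Eid2 8.04, with the control inferred at the floor, the neural transcription factor gene Sox11 4.63, Nrep 2.93 and the matrix gene Npnt 2.53. The term's list was chosen after the data were seen.

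Among genes without a symbol, transcript records of a type other than protein-coding were common in both tables. Of 11576 JICD1 records, 3822 were protein-coding, 2222 retained-intron and 2487 processed transcripts, all quoted on GRCm38.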
